A study of Mus musculus with 24 samples.

Results

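The genes described here are the glucuronosyltransferases (Ugt), the sulfotransferases (Sult) and the carboxylesterases (Ces) of mouse liver, 35 of the 14995 genes in the deposited count table. They are every gene whose symbol starts with Ugt1, Ugt2, Ugt3, Sult or Ces and goes on with a digit, a rule that uses no measured value but was set with earlier results of these data known. There were 13 Ces genes (7 Ces1, 3 Ces2, 2 Ces3 and 1 Ces4), 8 Sult genes (5 Sult1, 2 Sult2 and 1 Sult5) and 14 Ugt genes (4 Ugt1, 8 Ugt2 and 2 Ugt3). The study compared RYGB mice, which had Roux-en-Y gastric bypass, WM mice, which were brought to the body weight of the RYGB mice by caloric restriction, and Sham mice, which had sham surgery. Each group has 8 libraries of liver RNA taken 20 weeks after surgery, and the series title describes the mice as obese. The labels used here name no strain, sex, age or diet, and do not say whether the WM mice had an operation. Libraries are called by the numbers in their labels (RYGB 18, WM 25, Sham 17). Because no label states that each library is a separate mouse, p-values measure the spread between these libraries.

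These enzymes handle drugs, steroids, bile acids, thyroid hormone and bilirubin. Carboxylesterases are serine hydrolases, most of them held inside the endoplasmic reticulum, that cleave esters and amides, and several of them also cleave stored lipid esters. Sulfotransferases are cytosolic and move a sulfate from the donor PAPS to a hydroxyl or amino group. Glucuronosyltransferases sit in the membrane of the endoplasmic reticulum and attach glucuronic acid from UDP-glucuronate, and the conjugates then leave the cell through transport proteins. In mice each family has grown by local duplication into clusters of neighbouring genes.

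Libraries held 13659647 to 22766612 counts. Levels are given as CPM, counts scaled with TMM factors to a common library total. A count stands for 1 read near the 3′ end of a transcript, so levels were not divided by length and are compared between groups, not between genes. The 7 markers fixed for hepatocytes (Alb, Apoa1, Ttr, Cps1, Cyp2e1, Tat and Serpina1a) were all in the table. Their sum ran from 78230 to 132600 CPM in RYGB, from 71420 to 125400 CPM in WM and from 30650 to 69560 CPM in Sham livers, with 6 of 7 called higher in both comparisons with Sham. Kupffer cell markers summed to 115 to 747 CPM in RYGB, 162 to 463 CPM in WM and 41.8 to 228 CPM in Sham livers, with 6 of 6 called higher in RYGB and 5 of 6 in WM. Cholangiocyte markers (5 of 6 in the table) summed to 31.7 to 50.6 CPM in RYGB, 21.3 to 37.3 CPM in WM and 44.8 to 101 CPM in Sham livers. Intestinal markers (3 of 8 in the table) had 0 calls in 2 genes tested, and of the adipocyte markers (4 of 5 in the table) 1 of 2 tested was called higher in RYGB. Pancreatic acinar transcripts summed to 2841 CPM in RYGB 18, 2955 CPM in RYGB 19 and 1317 CPM in Sham 17 (15 of 17 markers in the table). In the other libraries that sum also differed by group, at 31.0 to 61.4 CPM in RYGB, 71.8 to 188 CPM in WM and 10.5 to 17.3 CPM in Sham livers, without overlap. The 1 acinar marker that passed the filter on low counts was called higher in both comparisons with Sham. None of the 6 kidney markers was in the table. The part of these markers in the results below was not tested, and in bulk tissue fewer cells of a type and less RNA per cell cannot be told apart.

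Short stretches upstream of 7 members show how alike and how unlike neighbours in these clusters are. They are the 250 bases before the transcription start, 5′ to 3′ on the gene's strand, from RefSeq (GRCm38.p6), in which 30 of the 35 members were found and Ces1d, Ces1f, Ces3a, Sult2a7 and Ugt3a2 were not. Ces1b (chr8:93080018-93080267, minus strand) and Ces1c (chr8:93131284-93131533, minus strand) are shown because these neighbours changed together, and capitals mark the identical bases of their best local match.
Ces1b: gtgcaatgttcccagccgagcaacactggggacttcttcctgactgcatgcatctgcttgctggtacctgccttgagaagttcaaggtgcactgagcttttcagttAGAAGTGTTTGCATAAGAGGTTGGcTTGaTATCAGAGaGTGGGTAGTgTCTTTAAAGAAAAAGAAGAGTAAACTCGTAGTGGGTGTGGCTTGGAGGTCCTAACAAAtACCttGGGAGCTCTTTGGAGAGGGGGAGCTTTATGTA
Ces1c: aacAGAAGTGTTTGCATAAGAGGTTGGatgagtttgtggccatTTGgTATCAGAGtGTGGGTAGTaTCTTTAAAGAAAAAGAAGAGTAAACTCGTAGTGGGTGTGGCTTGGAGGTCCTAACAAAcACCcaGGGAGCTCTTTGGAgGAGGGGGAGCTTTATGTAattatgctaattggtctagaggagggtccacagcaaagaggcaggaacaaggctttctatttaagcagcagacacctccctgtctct
The match joins 137 identical bases over 160 aligned positions (85.6% identity), ends at the start site of Ces1b and ends 87 bases before that of Ces1c. Ces1a, the next gene in the cluster, matched Ces1b at 62.8% and Ces1c at 60.6% in the same kind of alignment.

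Ces3b (chr8:105083505-105083754, plus strand) is shown as the member with the highest fold change over Sham, and Sult1b1 (chr5:87538196-87538445, minus strand) and Sult1d1 (chr5:87569007-87569256, minus strand) as neighbours that differed in response. In these capitals mark the HNF1 motif GTTAAT and the AHR core GCGTG on either strand.
Ces3b: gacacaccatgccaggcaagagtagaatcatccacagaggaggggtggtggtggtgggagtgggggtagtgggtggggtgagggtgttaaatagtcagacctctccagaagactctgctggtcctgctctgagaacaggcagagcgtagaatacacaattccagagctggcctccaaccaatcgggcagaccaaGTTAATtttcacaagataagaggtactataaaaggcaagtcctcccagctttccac
Sult1b1: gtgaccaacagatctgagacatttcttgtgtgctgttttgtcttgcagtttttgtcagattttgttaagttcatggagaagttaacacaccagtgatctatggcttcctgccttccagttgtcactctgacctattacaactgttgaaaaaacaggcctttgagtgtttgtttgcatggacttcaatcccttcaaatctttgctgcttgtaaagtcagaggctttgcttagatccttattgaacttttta
Sult1d1: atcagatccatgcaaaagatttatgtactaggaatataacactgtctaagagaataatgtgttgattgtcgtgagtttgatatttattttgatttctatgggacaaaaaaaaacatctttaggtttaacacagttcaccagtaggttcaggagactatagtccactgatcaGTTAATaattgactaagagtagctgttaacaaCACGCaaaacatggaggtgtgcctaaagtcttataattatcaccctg
Sult1b1 and Sult1d1 had a best local match of 50 aligned positions with 34 identical bases.

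Ugt2b37 (chr5:87254789-87255038, minus strand) and Ugt2b38 (chr5:87424204-87424453, minus strand) are shown because both stood out in the same libraries. Capitals mark the bases at which they differ or that have no partner in the other when aligned, such as the run at the end of Ugt2b37.
Ugt2b37: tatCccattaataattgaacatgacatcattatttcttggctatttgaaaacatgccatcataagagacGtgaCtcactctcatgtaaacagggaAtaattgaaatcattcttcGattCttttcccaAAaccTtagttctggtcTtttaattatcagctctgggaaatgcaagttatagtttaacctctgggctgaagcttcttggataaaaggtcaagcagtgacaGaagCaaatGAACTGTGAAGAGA
Ugt2b38: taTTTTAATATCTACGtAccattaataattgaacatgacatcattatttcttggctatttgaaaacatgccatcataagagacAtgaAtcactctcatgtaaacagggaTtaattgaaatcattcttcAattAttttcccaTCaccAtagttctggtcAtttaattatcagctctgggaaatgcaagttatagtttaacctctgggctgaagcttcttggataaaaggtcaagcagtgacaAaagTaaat
Aligned end to end they are identical at 84.8% of positions, and Ugt2b38 and Ugt2b5 at 81.5%, the closest pairs among the promoters of a subfamily by that measure. Ces1b and Ces1c, given above by their best local match, are identical at 43.1% of positions when aligned end to end. Over all listed starts of a gene, GTTAAT occurred in 7 of 30 members (23.3%: Ces3b, Sult1a1, Sult1d1, Ugt1a1, Ugt1a6a, Ugt2a3 and Ugt3a1), against 7.49% of 27025 genes. GCGTG occurred in 3 members (10%: Sult1b1, Sult1d1 and Ugt1a5) against 30.9% of genes. In Sult1b1 it lies before another listed start, not in the stretch printed above, which holds neither GTTAAT nor GCGTG. The STAT5 motif TTCNNNGAA occurred in 1 member, Ugt1a6a (3.33%), against 8.13% of genes. Direct repeats of the nuclear receptor motif AGGTCA, 3 or 4 bases apart, occurred in 0 of the 30. Both strands were searched, and a match or its absence describes these letters in this window and nothing more.

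Across the 35 genes, 32 passed the filter on low counts and were tested, and Ces1a, Ces4a and Ugt2b38 were not. Ces1a and Ces4a reached at most 0.761 and 1.38 CPM in any library, and Ugt2b38 at most 9.72 CPM. Without that filter 12 of 35 members were called higher by edgeR in WM against Sham livers. They included Ces4a (log2 fold change 3.025) and 1 of 8 Ugt2 genes, against 0 of 7 with the filter. Of all 14995 genes then tested, 4214 were called in either direction. In RYGB against Sham livers 11 of 32 members were called higher, beside 12.7% of all 13121 genes tested, and 1 was called lower, beside 11.0% (edgeR's quasi-likelihood test, Benjamini-Hochberg adjusted p under 0.05). In WM against Sham livers 10 were called higher, beside 16.5% of genes, and 2 lower, beside 15.0%. In RYGB against WM livers 0 members were called by edgeR's quasi-likelihood test, beside 1.49% of genes in either direction (1.06% higher and 0.434% lower), and 5 of the 32 had an unadjusted p under 0.05. DESeq2 called 0 and limma-voom called 1. Both comparisons with Sham share the same 8 Sham libraries. Of the members, 9 were called higher in both, 1 was called lower in both and 18 were called in neither.

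These counts moved with the scaling. With library totals in place of TMM, 7 members were called higher and 5 lower in RYGB against Sham livers, and 7 higher and 9 lower in WM against Sham livers. Calls over all 13121 genes, in either direction, numbered 4288 in RYGB and 4686 in WM under library totals. With TMM they numbered 3109 and 4125. Under library totals the median log2 fold change of all genes moved to -0.36 in RYGB and to -0.33 in WM, against -0.01 in both with TMM. The mean TMM factor was 0.922 in RYGB, 0.937 in WM and 1.18 in Sham libraries. Calls under either scaling test for any change, not for a departure from those medians. Ces1b, Ces1c, Ces3b, Sult1b1 and Sult2a8 were called higher in both comparisons under either scaling. Without the 3 libraries rich in acinar transcripts, the calls were 8 higher and 1 lower in RYGB and 10 higher and 3 lower in WM. Of all 13372 genes then tested, 2326 were called in RYGB and 3662 in WM against Sham livers. With those 3 fewer libraries the RYGB calls of Ces1g, Ces3a, Ugt2a3 and Ugt1a7c ended (edgeR adjusted p of 0.11, 0.0777, 0.0531 and 0.0568), and Ces2e was called lower. Their log2 fold changes were then 0.44, 0.69, 0.62 and -0.96, against 0.51, 0.91, 0.57 and -1.12 with all libraries.

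**Figure D1:**
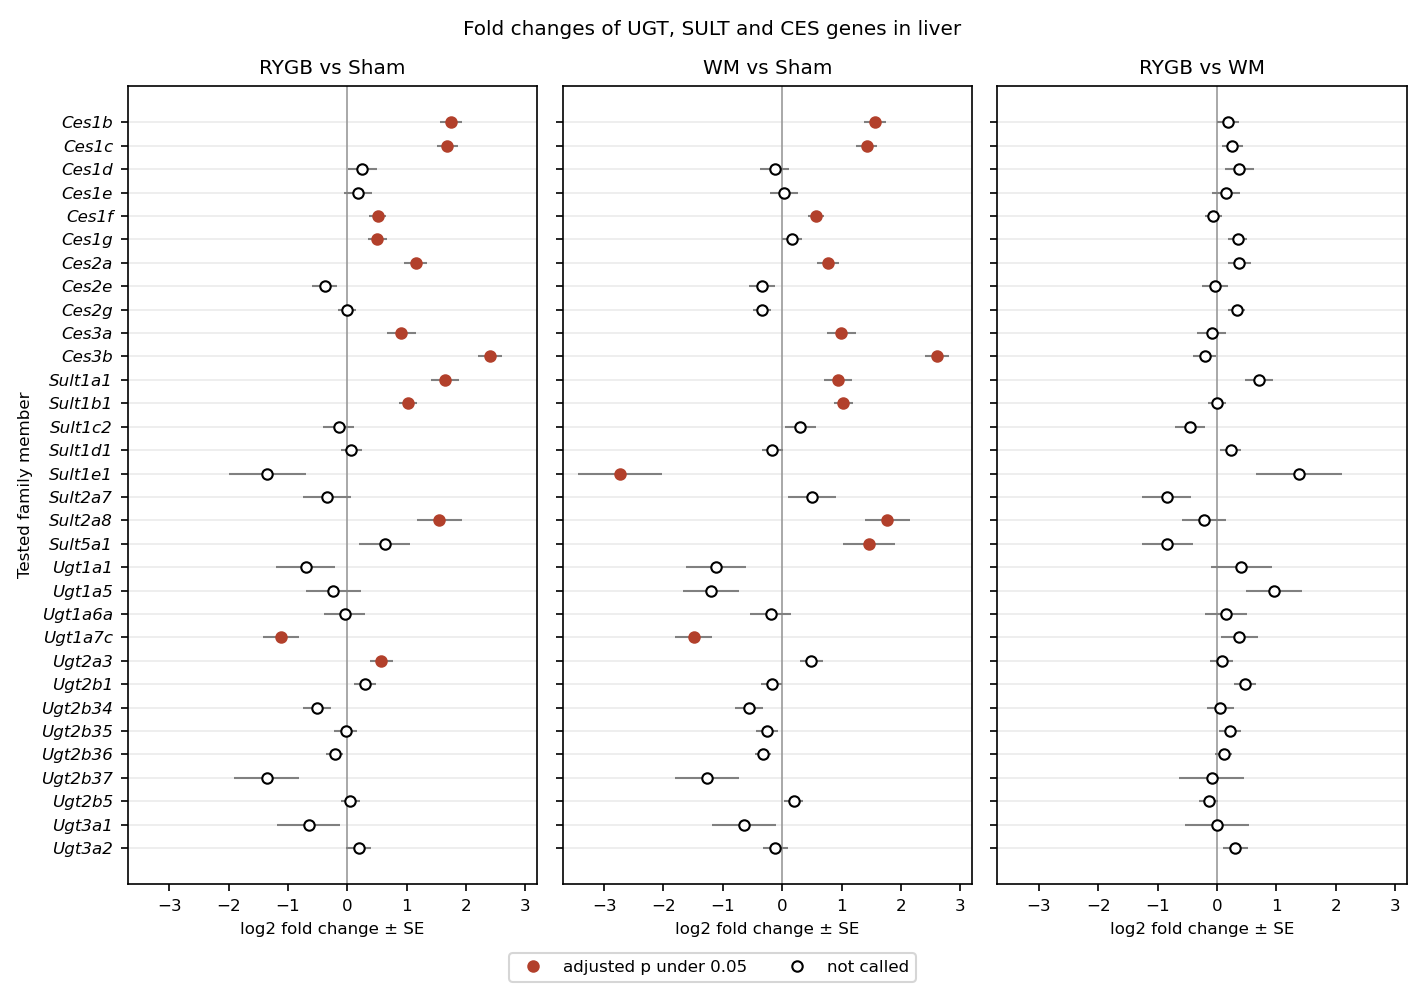
Log2 fold change (x axis, points, with bars for ±1 SE) of the 32 tested members in RYGB against Sham, WM against Sham and RYGB against WM. Filled points have an edgeR adjusted p under 0.05: 12 in the left panel, 12 in the middle and 0 in the right, with most of the filled points among the Ces and Sult genes.

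The carboxylesterases carried most of the higher calls. In RYGB against Sham livers 7 of 11 tested Ces genes were called higher and 0 lower, beside 12.7% and 11.0% of all genes. Their median log2 fold change was 0.51, against -0.01 for all genes. In WM against Sham livers 6 of 11 were called higher and 0 lower, beside 16.5% and 15.0% of all genes, with a median of 0.57. The 13 Ces genes together came to 4956 ± 745 CPM in RYGB, 4527 ± 1219 CPM in WM and 2226 ± 283 CPM in Sham livers (SD, n = 8 each). As a share of the summed CPM of all 35 members, that was 63.3%, 63.1% and 48.2% in RYGB, WM and Sham livers. No RYGB or WM library fell within the range of the Sham libraries in either quantity. Much of this came from Ces1c, which alone averaged 2563, 2141 and 796 CPM in RYGB, WM and Sham livers. The other 12 Ces genes summed to 2393 ± 481, 2386 ± 806 and 1430 ± 151 CPM in RYGB, WM and Sham livers. Without Ces1c the lowest WM library (1625 CPM) was below the highest Sham library (1662 CPM). Their share of all members was 30.6%, 33.2% and 31.0% in RYGB, WM and Sham livers.

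Ces1c encodes the carboxylesterase that mouse liver secretes into plasma. Its level had a lowest, median and highest value of 1950, 2704 and 3079 CPM in RYGB, 1437, 2208 and 2893 CPM in WM, and 639.5, 769 and 1041 CPM in Sham livers. All 16 RYGB and WM libraries lay above all Sham libraries. The log2 fold change was 1.69 (SE 0.18, edgeR adjusted p = 1.22e-07) in RYGB and 1.43 (SE 0.18, adjusted p = 7.49e-07) in WM against Sham livers.

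Next to it, Ces1b had 43.0, 57.1 and 94.0 CPM in RYGB, 43.9, 53.0 and 66.9 CPM in WM, and 11.6, 19.2 and 27.3 CPM in Sham livers (lowest, median and highest). Again the RYGB and WM ranges lay wholly above the Sham range, with log2 fold changes of 1.74 (SE 0.19) and 1.56 (SE 0.19). Of the 50-base stretches in the last 500 bases of its transcript, 25.1% also occur in Ces1c, and no label says how reads that match several genes were counted. The count of Ces1c over that of Ces1b in the same library averaged 43.3 ± 9.67 in RYGB, 39.3 ± 7.05 in WM and 45.9 ± 10.1 in Sham livers, ranges that overlap.

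The other Ces1 genes moved less. Ces1f averaged 182 ± 21.5 CPM in RYGB, 190 ± 23.1 CPM in WM and 128 ± 27.7 CPM in Sham livers, and its log2 fold changes of 0.51 (SE 0.14, edgeR adjusted p = 0.00776) and 0.57 (SE 0.14, adjusted p = 0.00227) were called. Under library totals they were 0.16 and 0.25 and were not called. Ces1g, a hydrolase linked to liver lipid handling, averaged 196 ± 35.1 CPM in RYGB, 154 ± 34.4 CPM in WM and 138 ± 31.7 CPM in Sham livers. It was called in RYGB (log2 fold change 0.51, SE 0.16, edgeR adjusted p = 0.0233) and not in WM (0.16, SE 0.16, adjusted p = 0.478). The difference between RYGB and WM livers, 0.35 (SE 0.16), had an adjusted p of 0.423, so the effects are not shown to differ. Leaving out Sham 14, Sham 16, Sham 23 or RYGB 29 in turn ended the call of Ces1g, with adjusted p between 0.0515 and 0.0595, and under library totals its RYGB value was 0.15 and was not called.

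Ces1d, a triacylglycerol hydrolase of the endoplasmic reticulum, lies beside Ces1c in the cluster and was not called in any comparison. It had 122, 166 and 219 CPM in RYGB, 34.1, 129 and 206 CPM in WM, and 75.5, 145 and 211 CPM in Sham livers, and the 3 ranges overlap. Ces1e was not called either, at 154 ± 49.5 CPM in RYGB, 139 ± 62.7 CPM in WM and 136 ± 26.2 CPM in Sham livers. The count of Ces1c over that of Ces1d in a library, a ratio that no library scaling can move, had a median of 16.1 in RYGB, 15.8 in WM and 5.59 in Sham livers. Its range was 9.47 to 22.0 in RYGB, 8.73 to 81.4 in WM and 4.39 to 9.29 in Sham libraries, with WM 25 at 81.4 and the other 7 WM libraries at 20.7 or below.

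Ces3b, whose promoter is printed above, showed the highest fold change of the 32 members in both comparisons with Sham. It had 247, 322 and 523 CPM in RYGB, 294, 335 and 726 CPM in WM, and 54.2, 62.2 and 88.5 CPM in Sham livers. The lowest RYGB and WM libraries were above the highest Sham library. Its log2 fold change was 2.40 (SE 0.21, 5.29-fold, edgeR adjusted p = 3.7e-09) in RYGB and 2.61 (SE 0.21, 6.10-fold, adjusted p = 6.51e-10) in WM livers. RYGB and WM livers did not differ beyond their spread (log2 fold change -0.20, SE 0.20, edgeR adjusted p = 0.806).

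Its neighbour Ces3a had 507, 962 and 1614 CPM in RYGB, 538, 876 and 2331 CPM in WM, and 361, 528 and 684 CPM in Sham livers. The groups overlap, and WM 25, at 2331 CPM, stands apart from the next WM library at 1196 CPM. The log2 fold change was 0.91 (SE 0.25, edgeR adjusted p = 0.00802) in RYGB and 1.00 (SE 0.25, adjusted p = 0.00288) in WM livers, and the RYGB value was 0.57 with an adjusted p of 0.06 under library totals and 0.69 with an adjusted p of 0.0777 without the 3 acinar-rich libraries. Transcripts of both genes share stretches near their 3′ ends, 31.3% of those of Ces3a and 27.1% of those of Ces3b, so the split of reads between them is uncertain. The count of Ces3b over that of Ces3a was 0.231 to 0.618 in RYGB, 0.278 to 0.652 in WM and 0.103 to 0.227 in Sham libraries, so that no RYGB or WM library reached down to the Sham range.

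Of the Ces2 genes 1 of 3 was called higher in each comparison with Sham, beside 12.7% of all genes in RYGB and 16.5% in WM. Ces2a had 76.6, 107 and 141 CPM in RYGB, 46.0, 77.4 and 152 CPM in WM, and 32.0, 46.6 and 67.3 CPM in Sham livers. RYGB lay wholly above Sham, whereas WM overlapped it. Log2 fold changes were 1.15 (SE 0.19, edgeR adjusted p = 6.59e-05) in RYGB and 0.77 (SE 0.19, adjusted p = 0.00262) in WM against Sham livers, and the difference between RYGB and WM livers, 0.38 (SE 0.19), had an adjusted p of 0.466. Under library totals the WM value was 0.43 and was not called (edgeR adjusted p = 0.0712).

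Ces2e was not called by edgeR's test with TMM, at 145 ± 52.7 CPM in RYGB, 149 ± 56.8 CPM in WM and 190 ± 37.0 CPM in Sham livers, with log2 fold changes of -0.38 (SE 0.22) and -0.35 (SE 0.22). Under library totals those became -0.74 and -0.67 and were called lower, as they were in limma-voom (-0.47 and -0.50). Ces2g, at 39.8 ± 8.01 CPM in RYGB, 31.7 ± 3.14 CPM in WM and 40.1 ± 6.41 CPM in Sham livers, was not called by edgeR's test with TMM, at -0.01 (SE 0.15) in RYGB and -0.34 (SE 0.15, adjusted p = 0.0788) in WM against Sham livers. Its WM value was called lower in limma-voom (-0.35, adjusted p = 0.0476), under library totals (-0.65, edgeR adjusted p = 0.00208) and without the 3 acinar-rich libraries (-0.40, adjusted p = 0.0486). The count of Ces2a over that of Ces2e was 0.5264 to 1.15 in RYGB, 0.334 to 0.915 in WM and 0.187 to 0.309 in Sham libraries. In each RYGB and WM library the ratio was thus above all Sham libraries, although 9.98% of the stretches of Ces2a and 11.8% of those of Ces2e also occur in other Ces2 genes or a related gene model.

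**Figure D2:**
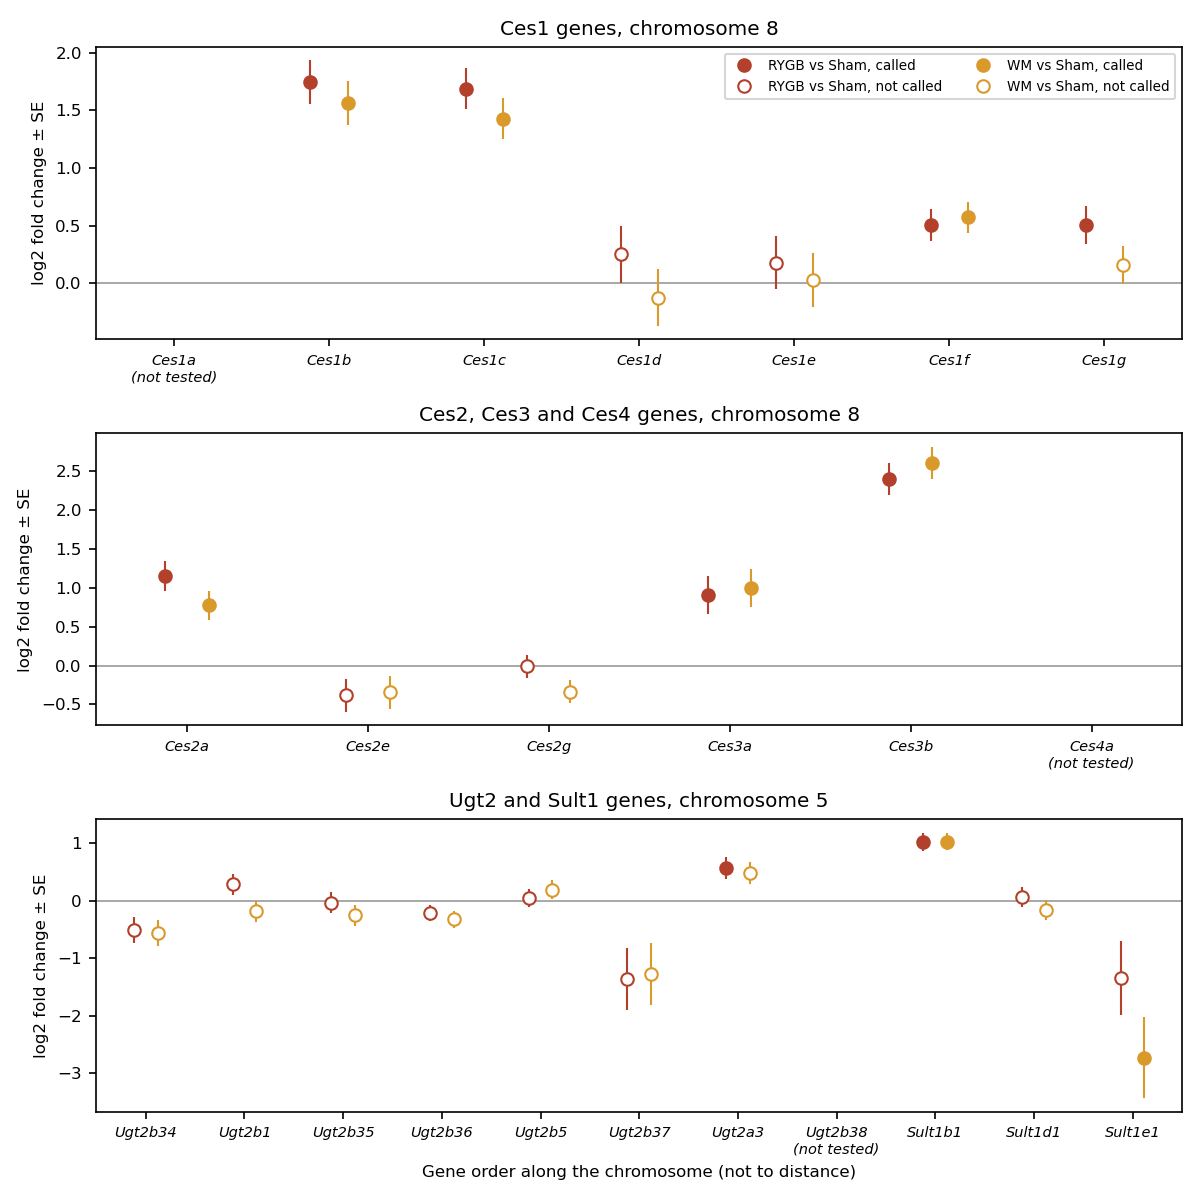
Log2 fold change against Sham (y axis, ±1 SE) of members placed in their order along chromosome 8 (Ces1 genes above, Ces2 to Ces4 genes in the middle) and chromosome 5 (below), with RYGB left of WM for each gene. Called genes (filled) stand beside uncalled neighbours: Ces1b and Ces1c beside Ces1d, and Sult1b1 beside Sult1d1.

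Among the sulfotransferases, 3 of 8 tested members were called higher and 0 lower in RYGB against Sham livers, beside 12.7% and 11.0% of all genes. Their median log2 fold change was 0.35. In WM against Sham livers 4 of 8 were called higher and 1 lower, beside 16.5% and 15.0% of all genes, with a median of 0.72. Summed over the family, levels were 729 ± 131 CPM in RYGB, 671 ± 186 CPM in WM and 352 ± 81.3 CPM in Sham livers, a share of 9.39%, 9.60% and 7.53% of all members.

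Sult1a1, the main phenol sulfotransferase, had 125, 219.9 and 312 CPM in RYGB, 69.5, 119 and 237 CPM in WM, and 53.6, 62.9 and 100.1 CPM in Sham livers. RYGB lay wholly above Sham, and WM overlapped both other groups. Its log2 fold change was 1.65 (SE 0.24, edgeR adjusted p = 1.49e-05) in RYGB and 0.94 (SE 0.24, adjusted p = 0.0036) in WM against Sham livers. Under library totals the WM value was 0.64 and was not called (edgeR adjusted p = 0.0558).

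Sult1a1 also had the smallest p of the members between RYGB and WM livers. That difference was 0.71 on the log2 scale (SE 0.24), with 8 of 8 RYGB libraries above the WM median and an edgeR adjusted p of 0.17. It was 0.88 with an adjusted p of 0.0452 without WM 9, the highest WM library, and 0.99 with an adjusted p of 0.00814 in limma-voom with quality weights. Over the other alternatives it was not called. Of the stretches near its 3′ end, 17.3% also occur in the gene model Gm6939.

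Sult1b1, which sulfates thyroid hormones and phenols, had 89.1, 102 and 122 CPM in RYGB, 69.5, 99.8 and 138 CPM in WM, and 38.0, 49.1 and 69.4 CPM in Sham livers. Both ranges lay above the Sham range, WM narrowly so. The log2 fold changes were 1.02 (SE 0.15, edgeR adjusted p = 1.93e-05) in RYGB and 1.03 (SE 0.15, adjusted p = 1.05e-05) in WM livers. In the next gene, Sult1d1, a catecholamine sulfotransferase, values were 104, 132 and 196 CPM in RYGB, 57.8, 133 and 165 CPM in WM, and 101, 133 and 159 CPM in Sham livers. These medians are close to each other and the ranges overlap, with log2 fold changes of 0.07 (SE 0.17) and -0.17 (SE 0.17), neither called. The count of Sult1b1 over that of Sult1d1 was 0.498 to 0.927 in RYGB, 0.587 to 1.203 in WM and 0.259 to 0.438 in Sham libraries, and 0% of the stretches of either occur in another gene.

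Sult2a8, a sulfotransferase of mouse liver that acts on bile acids, had 151, 254 and 390 CPM in RYGB, 53.2, 306 and 553 CPM in WM, and 30.2, 78.7 and 201 CPM in Sham livers. Most RYGB and WM libraries were above most Sham libraries, and the groups overlap. Log2 fold changes were 1.55 (SE 0.38, edgeR adjusted p = 0.00341) in RYGB and 1.77 (SE 0.38, adjusted p = 0.000744) in WM livers. Part of its 3′ sequence (18.4% of stretches) recurs in 31 other genes. The lowest WM value, 53.2 CPM, belonged to WM 25.

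The remaining sulfotransferases were at low levels. Sult5a1 averaged 3.54 ± 2.36 CPM in RYGB, 6.34 ± 3.74 CPM in WM and 2.29 ± 1.59 CPM in Sham livers, and was called in WM (log2 fold change 1.46, SE 0.44, edgeR adjusted p = 0.0114) but not in RYGB (0.63, SE 0.44, adjusted p = 0.312). Between RYGB and WM livers its difference of -0.84 (SE 0.43) had an adjusted p of 0.481. Sult1e1, the oestrogen sulfotransferase, had 44 counts over the 8 RYGB, 18 over the 8 WM and 130 over the 8 Sham libraries. In WM livers it was called lower (-2.73, SE 0.71, edgeR adjusted p = 0.00416), and every WM library was below every Sham library, whereas in RYGB livers edgeR did not call it (-1.35, SE 0.65, adjusted p = 0.134), though limma-voom (-2.04, adjusted p = 0.00488) and limma-trend (-1.72, adjusted p = 0.0387) did. Sult1c2 and Sult2a7 stayed at means of 1.84 to 6.11 CPM and were not called by edgeR's test. Sult2a7, at 0.51 (SE 0.40, adjusted p = 0.356) in WM against Sham livers with edgeR, was called higher there in limma-voom (1.02, adjusted p = 0.0247).

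**Figure D3:**
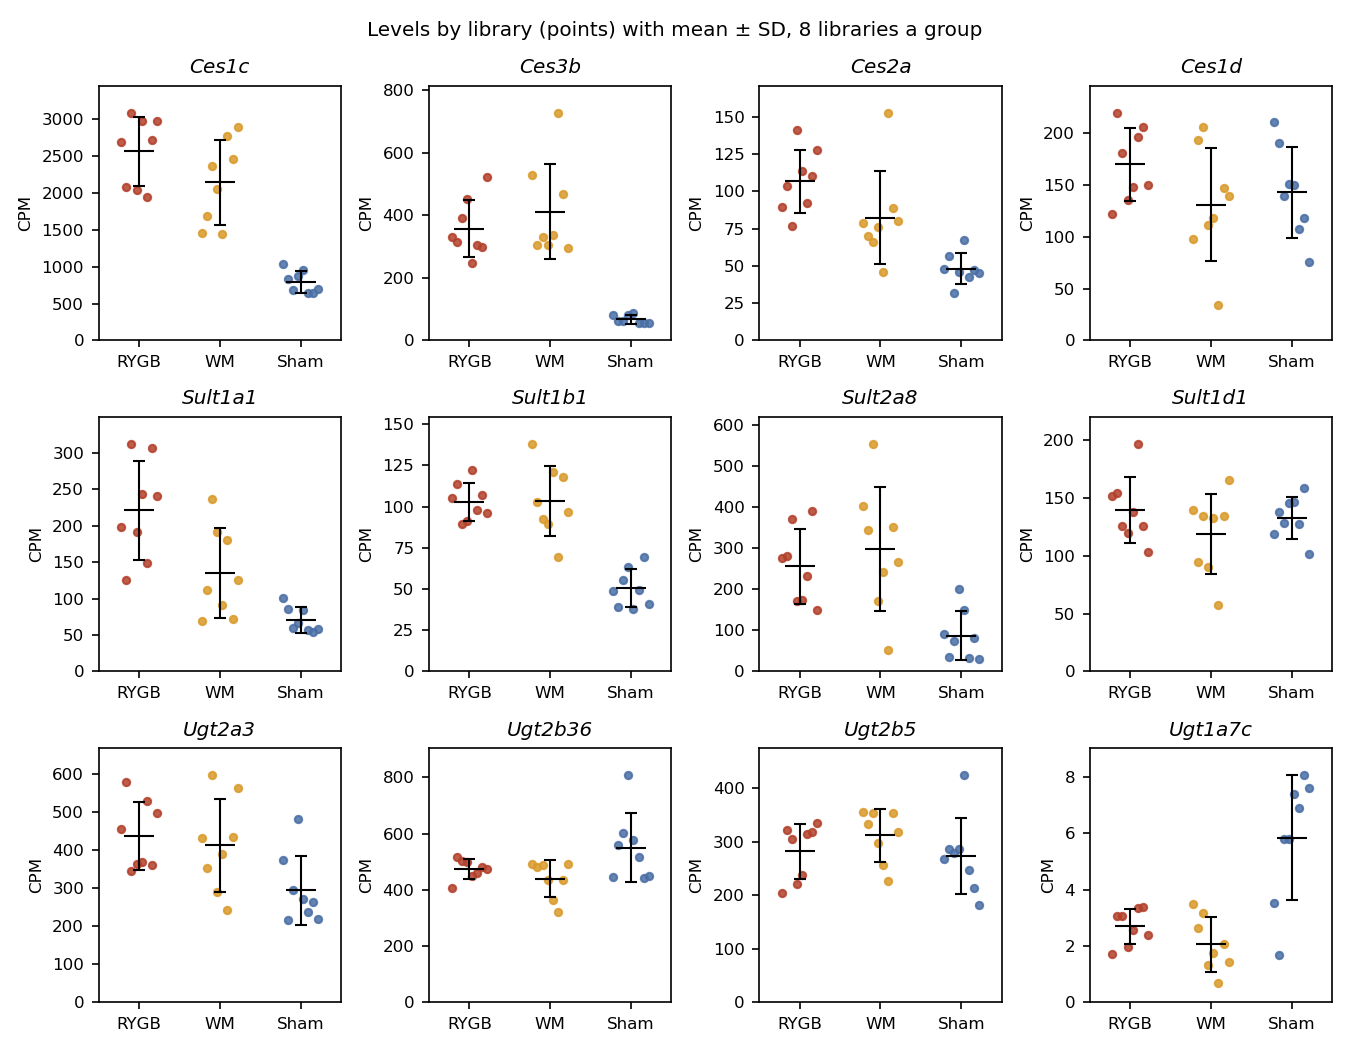
Level in CPM (y axis, linear from 0) of 12 members in each library (points) of the RYGB, WM and Sham groups, with mean and SD (n = 8 each). Ces1c and Ces3b show no overlap of RYGB or WM with Sham, Ces1d, Sult1d1 and Ugt2b36 overlap in all groups, and the highest Ugt1a7c points are Sham libraries.

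With edgeR and TMM, a smaller part of the glucuronosyltransferases was called than of the Ces or Sult genes. In RYGB against Sham livers 1 of 13 tested Ugt genes was called higher and 1 lower, with a median log2 fold change of -0.21. That is 7.69% each way, beside 12.7% higher and 11.0% lower of all genes. In WM against Sham livers 0 were called higher and 1 lower, beside 16.5% and 15.0% of all genes, with a median of -0.32. The family summed to 2105 ± 179 CPM in RYGB, 1910 ± 438 CPM in WM and 2066 ± 407 CPM in Sham livers, ranges that overlap. Its share of all members was 27.3% in RYGB, 27.3% in WM and 44.3% in Sham livers, with no RYGB or WM library (34.6% at most) reaching the lowest Sham library (39.2%). The total behind this share includes the Ces genes, whose sum was higher in RYGB and WM livers, so the share is no separate result on the Ugt genes. Under library totals 4 Ugt genes were called lower in RYGB and 6 in WM, and DESeq2 called 2 and 5, with Ugt2a3 called higher in both. Both settings also called more of all genes. In RYGB against Sham livers they called 4288 and 3576, against 3109 with edgeR and TMM.

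Ugt2a3 was the called higher member, with 345, 411 and 577 CPM in RYGB, 243, 410.4 and 596 CPM in WM, and 216, 266 and 479.7 CPM in Sham livers. The groups overlap. Its log2 fold change was 0.57 (SE 0.19, edgeR adjusted p = 0.0325) in RYGB and 0.49 (SE 0.19, adjusted p = 0.056) in WM livers, so that the call in one and not in the other marks no difference between them (0.08, SE 0.19, adjusted p = 0.948). The RYGB call ended when any of 8 single libraries was left out, Sham 3, Sham 14, Sham 16, Sham 17, Sham 23, RYGB 11, RYGB 22 or RYGB 29, with adjusted p of 0.0518 to 0.0675. The WM value was called without Sham 2, Sham 6, WM 13 or WM 25, with adjusted p of 0.0144 to 0.0395. Under library totals the RYGB value was 0.23 and was not called, and DESeq2 (0.48, adjusted p = 0.0465) and limma-voom (0.59, adjusted p = 0.00527) called the WM value. Ugt2a3 over Ugt2b36, a gene of the same cluster, had a median ratio of counts of 0.935 in RYGB, 0.934 in WM and 0.489 in Sham livers, with ranges that overlap.

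The Ugt2b genes, which glucuronidate steroids, bile acids and drugs, were not called against Sham by edgeR's test with TMM and the filter on low counts. Ugt2b34, Ugt2b36 and Ugt2b37 were called lower by other tools or settings. Ugt2b1 averaged 427 ± 74.7 CPM in RYGB, 308 ± 84.9 CPM in WM and 349 ± 100.3 CPM in Sham livers. Between RYGB and WM livers its log2 difference was 0.47 (SE 0.18, edgeR adjusted p = 0.274), with 8 of 8 RYGB libraries above the WM median. Ugt2b34 averaged 272 ± 36.8 CPM in RYGB, 262 ± 138 CPM in WM and 386 ± 76.3 CPM in Sham livers, at -0.51 (SE 0.23, edgeR adjusted p = 0.113) and -0.56 (SE 0.23, adjusted p = 0.0647). Without WM 9, whose level was the highest of the WM group, the WM value of Ugt2b34 was -0.81 with an adjusted p of 0.00284. Its WM value was also called by DESeq2 (-0.56, adjusted p = 0.0499), limma-voom, limma-trend and under library totals. Its RYGB value was called by limma-voom (-0.46, adjusted p = 0.0289), with the compared groups alone (-0.50, edgeR adjusted p = 0.0136) and under library totals (-0.85, adjusted p = 0.0151).

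Ugt2b36 averaged 474 ± 35.3 CPM in RYGB, 439.6 ± 65.1 CPM in WM and 550.1 ± 122 CPM in Sham livers, with 0 of 8 RYGB and 0 of 8 WM libraries above the Sham median of 539 CPM. Its log2 fold changes were -0.21 (SE 0.14, edgeR adjusted p = 0.286) and -0.32 (SE 0.14, adjusted p = 0.0817), and library totals made both calls (-0.54 and -0.61). DESeq2 (-0.33, adjusted p = 0.0482) and the length correction (-0.44, edgeR adjusted p = 0.0329) called the WM value. Ugt2b5 averaged 282 ± 51.7 CPM in RYGB, 312 ± 48.7 CPM in WM and 273 ± 71.5 CPM in Sham livers, and Ugt2b35 85.5 ± 18.6, 73.2 ± 21.8 and 87.3 ± 14.9 CPM in RYGB, WM and Sham livers. Ugt3a2, of a subfamily whose human members use sugar donors other than UDP-glucuronate, averaged 108 ± 23.7 CPM in RYGB, 87.0 ± 30.4 CPM in WM and 94.4 ± 24.8 CPM in Sham livers. Ugt2b5, Ugt2b35 and Ugt3a2 were not called by edgeR's test. Nor were Ugt1a6a and Ugt3a1, which averaged between 0.696 and 1.49 CPM in each group, though limma-voom called Ugt3a1 lower in RYGB (-1.24, adjusted p = 0.0414).

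Ugt2b37 and Ugt2b38, the closely matched pair shown above, were near the floor of detection in most libraries. Ugt2b37 had a median of 0.829 CPM in RYGB, 0.931 CPM in WM and 1.47 CPM in Sham livers, and Ugt2b38 one of 0.292, 0.717 and 0.0698 CPM in RYGB, WM and Sham livers. In WM 1 Ugt2b37 reached 2.76 CPM and Ugt2b38 9.72 CPM, and in Sham 14 they reached 9.84 CPM and 2.03 CPM, each the highest of its group. With edgeR and TMM Ugt2b37 was called in neither comparison, at -1.36 (SE 0.54, adjusted p = 0.0673) in RYGB and -1.27 (SE 0.54, adjusted p = 0.0741) in WM against Sham livers. DESeq2 called it lower in both (-1.37, adjusted p = 0.033, and -1.27, adjusted p = 0.0423), as did library totals (-1.71 and -1.60). It was also called lower in RYGB without RYGB 18 (-1.62, edgeR adjusted p = 0.0379) and in WM without WM 1 (-1.61, adjusted p = 0.0311). Ugt2b5 was also highest of the Sham group in Sham 14, at 424 CPM against a Sham median of 272 CPM. Of the stretches at the 3′ end, 3.10% are shared between Ugt2b37 and Ugt2b5 and 0% of those of Ugt2b38 occur elsewhere.

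The Ugt1 genes share their last exons, so that most 3′ reads cannot be divided among them by sequence. In the most shared coding transcript of each of the 4 members, 87.4% (Ugt1a7c) to 100% of the 3′ stretches of 50 bases occur in other Ugt1a genes. The annotated Ugt1a7c gene ends at position 88220002 of chromosome 1, and Ugt1a1, Ugt1a5 and Ugt1a6a end at 88218997. Some reads may thus belong to Ugt1a7c alone. Ugt1a7c had 1.72, 2.81 and 3.40 CPM in RYGB, 0.681, 1.91 and 3.48 CPM in WM, and 1.67, 6.34 and 8.06 CPM in Sham livers. All RYGB and WM libraries were below the Sham median, though Sham 3 was as low as they were. It was called lower, at -1.12 (SE 0.30, edgeR adjusted p = 0.00779) in RYGB and -1.49 (SE 0.31, adjusted p = 0.000492) in WM livers. Ugt1a1, the bilirubin glucuronosyltransferase, averaged 7.58 ± 6.97 CPM in RYGB, 5.71 ± 4.45 CPM in WM and 12.3 ± 9.21 CPM in Sham livers and was not called by edgeR's test with TMM, at -0.70 (SE 0.50, adjusted p = 0.326) in RYGB and -1.11 (SE 0.51, adjusted p = 0.0948) in WM livers. It was called lower by limma-voom in RYGB (-1.41, adjusted p = 0.00834) and WM (-1.36, adjusted p = 0.014), and under library totals in WM (-1.42, edgeR adjusted p = 0.0179). Ugt1a5 averaged 7.43 ± 5.00 CPM in RYGB, 3.82 ± 3.02 CPM in WM and 8.74 ± 3.30 CPM in Sham livers, and its WM value of -1.20 (SE 0.48, edgeR adjusted p = 0.0549) was called without Sham 2, WM 20 or WM 25 (adjusted p of 0.0222 to 0.0306), and by DESeq2, limma-voom and limma-trend. Its RYGB value, -0.24 (SE 0.46) with edgeR, was called by limma-voom alone (-1.06, adjusted p = 0.0399). Counted as 1 gene, the 4 members had a log2 fold change of -0.57 (SE 0.33, edgeR adjusted p = 0.214) in RYGB and -1.14 (SE 0.33, adjusted p = 0.00954) in WM livers, and 0.57 (SE 0.33, adjusted p = 0.558) between RYGB and WM livers.

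**Figure D4:**
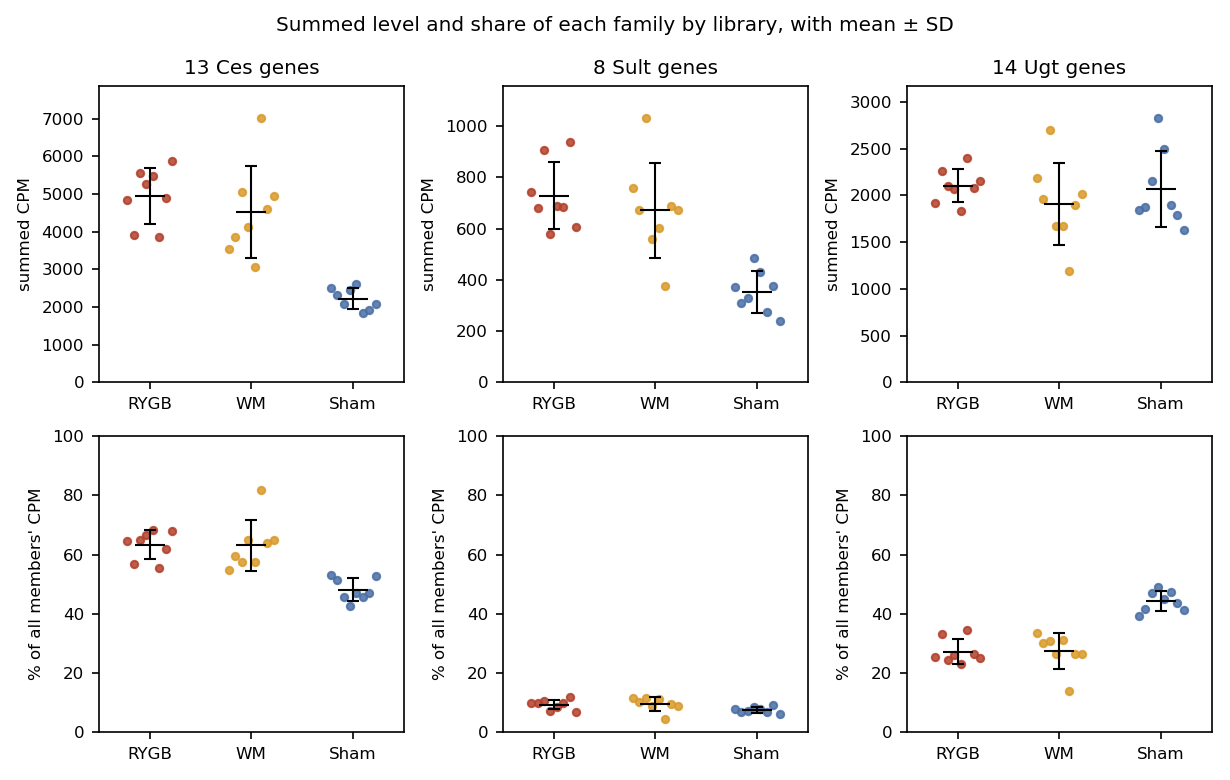
Summed CPM (upper row) and share of the summed CPM of all 35 members (lower row, in %) of the Ces, Sult and Ugt families in each library (points), with mean and SD (n = 8 each). Ces sums were 4956, 4527 and 2226 CPM in RYGB, WM and Sham livers, and the point at the top of the WM group in the Ces panels, 7023 CPM and 81.8%, is WM 25.

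WM 25 stood apart from the other WM libraries across the families. It held the lowest WM level of 13 members of 35, whereas no other library was lowest in its group for more than 8. It also held the highest WM level of 9 members, fewer than the 11 of WM 9. Its Ces genes summed to 7023 CPM, against 4171 ± 740 CPM in the other 7 WM libraries (SD), its Sult genes to 378 CPM against 713 ± 155 CPM and its Ugt genes to 1188 CPM against 2013 ± 353 CPM. Leaving it out, 12 members were called higher and 5 lower in WM against Sham livers, with Ces2e (-0.52, edgeR adjusted p = 0.0474), Ugt1a1 (-1.53, adjusted p = 0.0215) and Ugt1a5 (-1.46, adjusted p = 0.0222) among the lower ones. Of all 13308 genes then tested 4197 were called, against 4125 of 13121 with all libraries.

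By the plainer criterion of groups that do not overlap, 6 members (Ces1b, Ces1c, Ces2a, Ces3b, Sult1a1 and Sult1b1) had all RYGB libraries above all Sham libraries, beside 3.28% of all genes, and 0 had all below, beside 2.10%. In WM against Sham livers 4 members (Ces1b, Ces1c, Ces3b and Sult1b1) lay wholly above, beside 3.15% of genes, and Sult1e1 wholly below, beside 2.68%. Between RYGB and WM livers 0 members were separated in either direction, beside 0.282% and 0.0762% of genes.

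**Figure D5:**
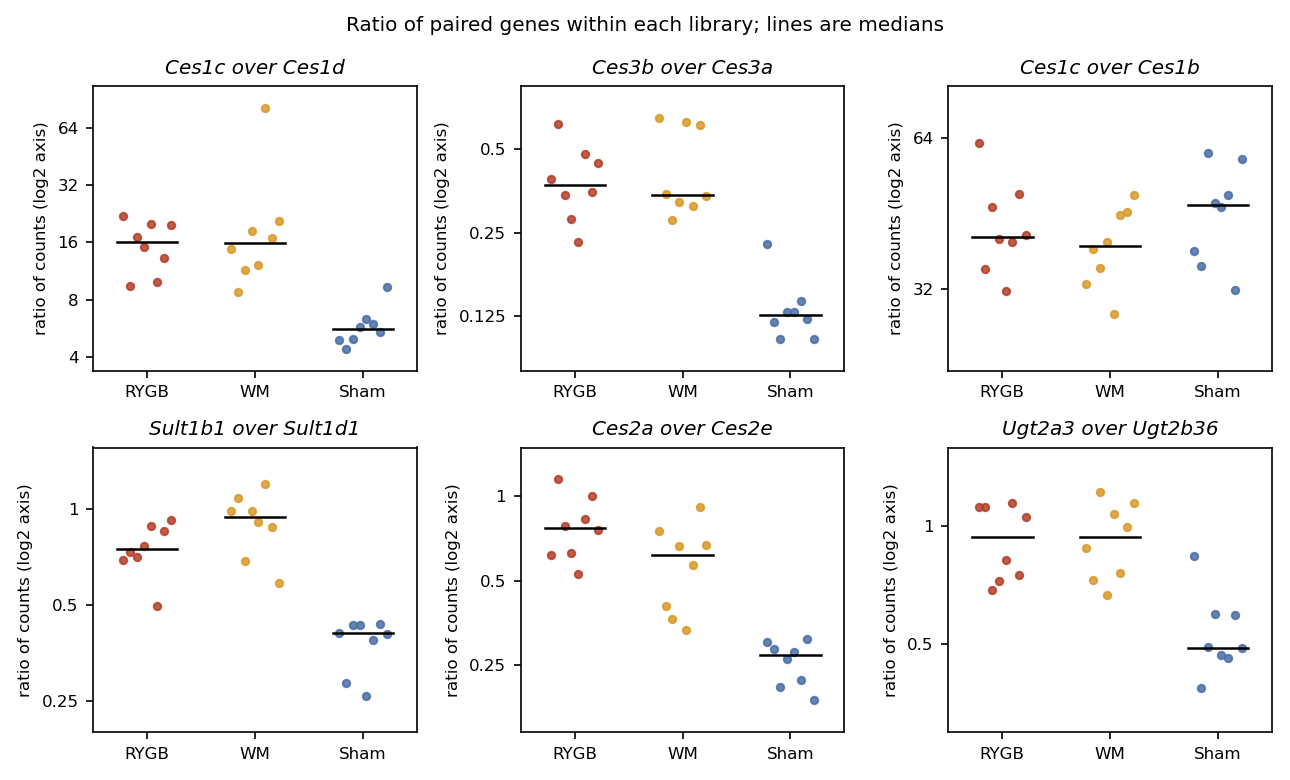
Ratio of the raw counts of paired members within each library (points, log2 axis), with group medians (lines), for RYGB, WM and Sham. Ces3b over Ces3a and Ces2a over Ces2e lie above the Sham range in all RYGB and WM libraries, whereas Ces1c over Ces1b overlaps in all 3 groups with means of 43.3, 39.3 and 45.9. The pairs were chosen after their values were seen and carry no test.

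Counts of called genes on the lists that follow stand beside 12.7% higher and 11.0% lower of all genes tested in RYGB, and 16.5% higher and 15.0% lower in WM against Sham livers. Of 6 genes for UDP-glucuronate supply and glucuronide cleavage, 1 was called higher and 2 lower in RYGB and 1 higher and 3 lower in WM against Sham livers, with median log2 fold changes of -0.50 and -0.40 beside -0.01 for all genes. Ugdh, which makes UDP-glucuronate, averaged 87.7 ± 14.6 CPM in RYGB, 62.0 ± 17.2 CPM in WM and 170.5 ± 34.9 CPM in Sham livers, a log2 fold change of -0.96 (SE 0.17, edgeR adjusted p = 0.000176) and -1.46 (SE 0.18, adjusted p = 5.05e-07). Of 9 tested genes for sulfate donor supply and sulfate ester cleavage, 1 was called higher and 1 lower in each comparison with Sham, shares near those of all genes, with medians of 0.24 in RYGB and -0.02 in WM. Slc35b2, which carries PAPS into the Golgi, was called higher, at 0.64 (SE 0.23, edgeR adjusted p = 0.0381) in RYGB and 1.21 in WM. Its RYGB call ended under library totals (0.28, adjusted p = 0.333), in limma-trend (0.60, adjusted p = 0.0512), without the 3 acinar-rich libraries (0.61, edgeR adjusted p = 0.0943) and with the length correction (0.61, adjusted p = 0.0598). Bpnt2, a phosphatase of the by-product of sulfation in the Golgi, was called lower, at 121 ± 30.6 CPM in RYGB, 111 ± 36.6 CPM in WM and 243 ± 60.3 CPM in Sham livers.

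Exporters of conjugates were called higher in 0 of 7 cases, and lower in 3 of 7 in RYGB and 4 of 7 in WM, with median log2 fold changes of -0.57 and -0.64. Abcc2, the canalicular export pump for glucuronides, averaged 194 ± 59.0 CPM in RYGB against 362 ± 78.7 CPM in Sham livers (-0.90, SE 0.21, edgeR adjusted p = 0.0023). Abcc3, the basolateral pump, was lower at -0.60 (SE 0.20, edgeR adjusted p = 0.0255) in RYGB and -1.11 (SE 0.20, adjusted p = 9.8e-05) in WM livers. With a correction for transcript length all 3 RYGB calls ended, those of Abcc2 (-0.50, edgeR adjusted p = 0.119), Abcc3 (-0.36, adjusted p = 0.236) and Abcb1a, a drug efflux pump (-0.70, adjusted p = 0.117, against -0.95 without it). Of the 4 WM calls, those of Abcc2 (-0.16, edgeR adjusted p = 0.636, against -0.64 without it) and Abcc4 (-0.51, adjusted p = 0.217, against -0.82) ended.

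Other hydrolases and conjugating enzymes moved in both directions. Of 11 other ester and lactone hydrolases 4 were called higher and 3 lower in RYGB, and 3 higher and 5 lower in WM livers, with median log2 fold changes of -0.31 and -0.37. Aadac, the arylacetamide deacetylase, averaged 639 ± 143 CPM in RYGB against 295 ± 43.1 CPM in Sham livers (1.11, SE 0.20, edgeR adjusted p = 0.000208). WM livers, at 546 ± 209 CPM, were also called higher than Sham (0.89, SE 0.20, edgeR adjusted p = 0.00142). Lipa, the lysosomal acid lipase, averaged 379 ± 67.1 CPM in RYGB and 219 ± 37.0 CPM in WM livers, a called difference of 0.80 (SE 0.16, edgeR adjusted p = 0.0041). Sham livers were above both, at 472 ± 101.7 CPM. Against Sham, Lipa was called lower in WM (-1.11, SE 0.16, edgeR adjusted p = 5.1e-06) and not called in RYGB (-0.31, SE 0.16, adjusted p = 0.146). Of 10 other conjugating enzymes 3 were called higher and 0 lower in RYGB, and 4 higher and 2 lower in WM livers, with medians of 0.41 and 0.35. Nnmt, the nicotinamide methyltransferase, rose to 143 ± 25.4 CPM in RYGB and 139 ± 42.2 CPM in WM, against 41.1 ± 16.1 CPM in Sham livers (1.80 and 1.76, SE 0.21 each).

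Among 16 tested receptors and factors that control drug metabolism genes, 4 were called higher and 2 lower in RYGB, and 3 higher and 1 lower in WM livers, with medians of 0.19 and 0.11. The higher share in WM and the lower share in RYGB are near those of all genes. Ppara, the fatty acid receptor, averaged 166 ± 77.6 CPM in RYGB against 392.5 ± 125 CPM in Sham livers (-1.24, SE 0.29, edgeR adjusted p = 0.00259). It was also called lower in WM (-0.80, edgeR adjusted p = 0.0361), a call that ended with the length correction (-0.65, adjusted p = 0.104). Stat5b, which relays growth hormone signals, averaged 45.0 ± 11.4 CPM in RYGB, 27.2 ± 4.49 CPM in WM and 27.6 ± 3.66 CPM in Sham livers, and was called in RYGB against WM livers (0.73, SE 0.16, edgeR adjusted p = 0.00906). Against Sham, Stat5b was called higher in RYGB (0.71, edgeR adjusted p = 0.00145), a call that ended under library totals (0.35, adjusted p = 0.129). Nr1i3, the receptor CAR, was called higher in RYGB (0.56, SE 0.16, edgeR adjusted p = 0.0112) and WM (0.77, SE 0.16, adjusted p = 0.000538) against Sham livers. Its RYGB call ended under library totals (0.22, edgeR adjusted p = 0.332) and without the 3 acinar-rich libraries (0.44, adjusted p = 0.0891).

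Of 9 target genes of such receptors outside the families, 2 were called higher and 6 lower in both comparisons with Sham, with medians of -0.75 in RYGB and -1.33 in WM. Cyp3a11, a target of the receptor PXR, averaged 508.5 ± 151 CPM in RYGB, 155.5 ± 72.1 CPM in WM and 1252 ± 219 CPM in Sham livers, and differed between RYGB and WM livers by 1.71 (SE 0.25, edgeR adjusted p = 0.000131). Gclc, which makes glutathione's precursor, averaged 212 ± 39.9 CPM in WM against 941 ± 304 CPM in Sham livers (-2.15, SE 0.20, edgeR adjusted p = 1.7e-08). Gclc was called lower in RYGB against Sham livers too. Under library totals, 9 of 15 higher calls on these lists were lost in RYGB and 7 of 14 in WM. No called list gene changed direction under the alternatives examined for these lists. Fits with a single library left out were not examined for the list genes.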

How the data were processed

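Liver RNA of 24 libraries in 3 groups of 8 was sequenced from the 3′ end with a QuantSeq kit as single reads of 50 bases, per the labels' protocols. The authors deposited whole-number read counts per gene, and a second table of normalized signal in which the authors divided each raw count by 1 size factor per library. DESeq2 1.34 and R 4.1.2 are listed in the submitters' processing notes. The labels do not state the genome build, annotation, aligner, counter or strand setting, nor how reads that match several genes were handled. Members that share 3′ sequence can exchange reads.

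The members and the lists were chosen with earlier results of these data known. Genes given in full were members called in at least 1 comparison with a mean of at least 1 CPM and uncalled members at 100 CPM or more. Genes outside the families came from the lists, with at most 2 called genes chosen per list and comparison. A gene chosen for 1 comparison may be given in the others too. Exporters are an exception, as every exporter call that ended with the length correction is given. The raw counts were fitted in R 4.3.3 with edgeR 4.0.16 (filterByExpr, TMM, quasi-likelihood F-test, two-sided, no covariate, all 24 libraries, common biological coefficient of variation 0.398). Benjamini-Hochberg adjustment ran over all 13121 genes tested, and a call is an adjusted p under 0.05. The SE of a log2 fold change is its size divided by the square root of F. The script was tested on simulated counts. Alternatives used DESeq2 1.42.0, limma 3.58.1 (the trend fit on log2 of the normalized signal plus 1), size factors, library totals, other filters, the compared groups alone, each library left out, 3 acinar-rich libraries left out, a transcript length correction (mgcv 1.9.3; 99.8% of tested genes had a length) and Ugt1a genes summed. Positions and 3′ sequence came from GENCODE M21 (GRCm38), matched by Ensembl ID. For a gene with several coding transcripts, the share of 3′ stretches found in other genes is that of the transcript that shared most. No protein sequences were used here.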

Additional observations from a re-analysis of the deposited data

Results flagged for a closer look

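In each group of 8 libraries, the highest and the lowest value of each of the 35 members were set against the rest of the group by Dixon's criterion at its 95% critical value. Of 105 member and group pairs, 13 had such a library. Chance gives about 1 in 20 only for independent values with a normal spread. Members near 0 need not have that spread, and some libraries were flagged for several members, so the 13 cannot be set against that rate. WM 25 was far above the other WM libraries for Ces2a (152.4 CPM, the next at 89.1), Ces3a (2331 CPM, the next at 1196) and Ugt1a1 (15.73 CPM, the next at 6.34). Sham 14 was far above the other Sham libraries for Ugt2b37 (9.838 CPM, the next at 2.90), Ugt2b38 (2.027 CPM, the next at 0.593) and Ugt2b5 (423.7 CPM, the next at 287). WM 1 was far above the other WM libraries for Ugt2b37 (2.755 CPM, the next at 1.35) and Ugt2b38 (9.724 CPM, the next at 3.11). Ugt2b36 in Sham 6 was at 807.5 CPM, with the next Sham library at 602 CPM. Ces2g in RYGB 28 was the 1 low value, at 21.83 CPM against 34.95 CPM in the nearest RYGB library. The others were members near 0 in most libraries: Ces1a in WM 27 (0.761 CPM), Ces4a in RYGB 18 (1.381 CPM) and Ces4a in Sham 23 (0.378 CPM).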

How the results depend on the processing

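Over the alternatives tried, the 96 member values had 2574 alternative values, of which 2496 kept their side of the threshold, 25 lost the call and 53 gained one. Of the 2496, 76 had the opposite sign and were called in neither, and 0 calls turned to the other direction. The number of members higher in RYGB against Sham livers was 7 under library totals, against 11. Calls over all 13121 genes, in either direction, moved as well. In RYGB against Sham livers they numbered 3109 with TMM, 3576 with DESeq2, 4288 under library totals and 5018 with limma-voom. In WM against Sham livers those numbers were 4125, 4526, 4686 and 5357. Members lower in RYGB against Sham livers numbered 1 with TMM, 2 with DESeq2, with the compared groups alone and with limma-trend, 5 under library totals, 7 with limma-voom and 0 with the Ugt1a genes summed, and 1 to 2 with single libraries left out (2 without RYGB 18). Members lower in WM against Sham livers numbered 2 with TMM, 6 with DESeq2, 9 under library totals, 7 with limma-voom, 4 with limma-trend, 4 with the length correction and 1 when at least 1 CPM in 8 libraries was required, and 2 to 5 with single libraries left out (5 without WM 25). Members higher in RYGB against WM livers numbered 0, against 1 with limma-voom, and 0 to 1 with single libraries left out (1 without WM 9). With single libraries left out, 9 to 11 members were called higher in RYGB and 10 to 12 in WM against Sham livers. The causes of these shifts were not tested, apart from Ugt1a, where 4 genes became 1. Transcript length correction ended the RYGB calls of Ces1f (0.39, edgeR adjusted p = 0.0797) and Ugt2a3 (0.49, adjusted p = 0.112). No paired analysis was possible because the sample numbers in the labels differ between the groups. Depth limits the members under 1 CPM, such as Sult1e1 with 18 counts over the 8 WM libraries.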
